A study of Caenorhabditis elegans with 12 samples.

Results

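The ceh genes are Caenorhabditis elegans genes named for encoding homeobox proteins. They were taken as all probe sets that the array platform's annotation assigns to 1 gene with a symbol of the form ceh and a number, ceh-24 excepted. The rule uses names alone and no measured value. It gave 73 probe sets of 59 genes, out of 20766 single-gene probe sets of 17118 genes. Of the 59 genes, 47 had 1 probe set, 10 had 2 and 2 had 3 (ceh-21 and ceh-39). One further probe set, shared by ceh-63 and C02F12.5, represents several genes and was left out.

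Homeobox proteins are transcription factors that bind DNA through the homeodomain, and many fix the identity of a cell type or a body region. The ceh symbol is a naming series and not a family, so it spans several homeobox classes. The PBC proteins of the TALE class are cofactors of Hox proteins, POU proteins pair the homeodomain with a second DNA-binding domain, sine oculis type and NK-2 proteins act in mesoderm, pharynx and head development, and ONECUT proteins carry a cut domain beside the homeodomain. In C. elegans ceh-20, the PBC gene related to fly extradenticle and vertebrate Pbx, and ceh-34, a sine oculis type gene, are both known from the postembryonic mesoderm lineage founded by the M blast cell, in which the Twist homologue HLH-8 also acts.

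RNA was measured on 12 single-colour arrays with Affymetrix identifiers, hybridised with RNA from a tissue lysate, 6 arrays for each of 2 strains. In what is called the HLH strain here, worms carried pHS::hlh-8 together with pHS::hlh-2, in addition to egl-15::gfp and pRF4. The marker strain had egl-15::gfp and pRF4 without the pHS constructs, so both strains share a reporter and a transformation marker. The labels give no cell type for the promoters, and no age or stage. The design text states 3 biological replicates with and without heat shock, and each title holds a set number and a code. The HLH strain has the codes 1 and 2 and the marker strain has 3 and 4, with sets numbered 1 to 3 and 3 arrays per code. Which code stands for heat shock is not in the labels, and codes are compared as codes. One HLH code 2 array has an uncertain set number and is left out wherever sets enter the fit. Array medians ran from 180.3 to 208. Most listed markers of neurons, body wall muscle, pharynx and intestine were above the median on all 12 arrays, and all values come from mixed tissues, in which fewer cells of a type and less RNA per cell cannot be told apart.

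Most ceh probe sets were dim. A signal above the median of its own array was used as the mark of a measurable level, and 36.8% of the ceh values met it. The number of ceh probe sets above the median varied little, from 25 to 28 of 73 per array, or 34.2% to 38.4%. On all 12 arrays 18 probe sets were above it, on 3 to 11 arrays 12, on 1 or 2 arrays 5, and on no array 38. The 30 probe sets above the median on at least 3 arrays were tested, which is 41.1% of the ceh probe sets against 54.7% of all 22548 probe sets that are not controls. They belong to 23 genes, and 36 ceh genes had no tested probe set. Of the 876 ceh values, 122 were at or under the signal of 16.7 to which low values were raised before the fit, and none of these belonged to a tested probe set.

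**Figure D1:**
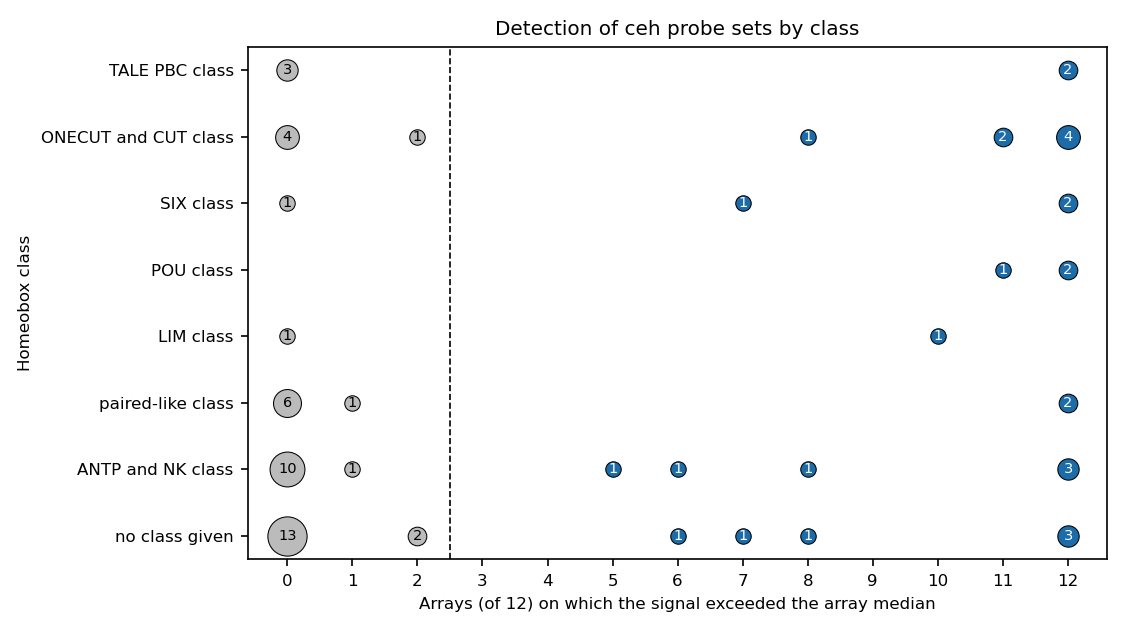
The horizontal axis gives the number of arrays (of 12) on which a ceh probe set exceeded the median signal of its array, and the vertical axis the homeobox class. Each disc stands for the number of probe sets written in it, and those right of the dashed line, in blue, were tested. All 3 POU probe sets lie right of the line, and 38 probe sets lie at 0.

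Detection differed between classes. All 3 POU probe sets were tested, those of ceh-6, known from the excretory cell, and ceh-18, which acts in gonadal sheath cells in the control of oocyte maturation. Of 12 probe sets of ONECUT and CUT genes 7 were tested, of 4 sine oculis type probe sets 3, of 5 TALE probe sets 2 and of 17 ANTP and NK probe sets 6. The paired-like genes, many of which specify neurons, had 2 tested probe sets of 9, both of the Otx-type gene ceh-37. The LIM gene ceh-14, which acts in thermosensory neurons, had 1 of 2. Of the 21 probe sets of genes given no class here, 6 were tested.

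Several members with well-known roles stayed below the median throughout. The Distal-less gene ceh-43 ranged from 8.8 to 102 with a median of 59.8 over the 12 arrays. The mesodermal NK-2 gene ceh-51 had a median of 39.4 and a range of 9.4 to 88.1. The other PBC genes, ceh-40 and ceh-60, had medians of 20.7 for the former and 6.95 and 13.4 for the pair of ceh-60 probe sets. For ceh-7 and ceh-81 all 12 values were at or under the signal of 16.7. None of these was tested in the comparisons below, and a low signal in RNA of mixed tissues does not show that a gene is off in the few cells that may use it.

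Neighbouring genes were not always measurable together. The annotation places ceh-41 beside ceh-21, with 1 coding gene between ceh-21 and ceh-39, and these ONECUT genes were each tested through at least 1 probe set. The sine oculis type genes ceh-34 and ceh-33 are also adjacent. The probe set of ceh-34 exceeded the median on 7 arrays, while that of ceh-33 ranged from 124.3 to 180.8 and never did. Of the adjacent Otx-type genes ceh-36 and ceh-37, only ceh-37 was tested, with ceh-36 ranging from 19.7 to 123. The adjacent Bar-type genes ceh-30 and ceh-31 were both untested.

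No ceh gene passed the test between the strains or between the codes. The model was fitted with limma to all 12328 tested probe sets, and a call is a Benjamini-Hochberg adjusted p under 0.05 over all of them. Between the HLH strain and the marker strain over both codes, 0 of 30 ceh probe sets were called, against 2.72% of all tested. An unadjusted p under 0.05 held for 1 of the 30 ceh probe sets, against 1983 of all 12328. None of the 30 had all 6 HLH arrays on one side of all 6 marker arrays, which held for 3.18% of all tested probe sets. Strain differences of the ceh probe sets ran from -0.32 to 0.33 on the log2 scale, with a median of 0.11 against 0.05 over all tested probe sets. For all 30 the 95% interval lay within a 2-fold difference either way, and for 22 within 1.5-fold.

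The set numbers pair the arrays, as described with the processing, so the same comparison was fitted with the set as a block on 11 arrays. The share of called probe sets then rose to 14% of all tested, and still 0 of 30 ceh probe sets were called in limma. An unadjusted p under 0.05 held for 2 of the 30 ceh probe sets, against 3584 of all 12328. The lowest adjusted p was 0.126, for ceh-23, and 26 of the 30 intervals lay within 1.5-fold. Taken at single codes, HLH code 1 against marker code 3 gave 0 ceh calls, against 0.438% of all tested. With the block there were also 0, against 4.38%. Both without and with the block 1 ceh probe set had an unadjusted p under 0.05, against 1156 and 2588 of all 12328. HLH code 2 against marker code 4 gave 0 ceh calls, against 0.397% of all tested, and 0 with the block, against 3.89%. No ceh probe set had an unadjusted p under 0.05 without or with the block, against 990 and 2268 of all 12328.

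Codes within a strain gave the same count. Between codes 2 and 1 of the HLH strain 0 of 30 ceh probe sets were called by limma, against 0.0406% of all tested probe sets. Between codes 4 and 3 of the marker strain the ceh count was again 0, against 0.0568%. In both, 0 ceh probe sets had an unadjusted p under 0.05, against 284 and 268 of all 12328. With the set block there were still 0 calls, against 0.0487% and 0.154% of all tested. An unadjusted p under 0.05 was found for 1 and 2 of 30 ceh probe sets, against 877 and 893 of all 12328. Averaged over the strains, codes 2 and 4 against codes 1 and 3 gave 0 ceh calls, against 0.105% of all tested. With the block there were also 0, against 0.438%. An unadjusted p under 0.05 held for 0 ceh probe sets without the block and 3 with it, against 509 and 1314 of all 12328. The code difference was also compared between strains, matching code 2 with code 4. That interaction gave 0 calls over all probe sets, a share of 0 with and without the block. In it 0 ceh probe sets had an unadjusted p under 0.05, against 87 of all 12328 without the block and 436 with it. Its intervals are wider, and 22 of the 30 lay within 2-fold. Comparisons of codes are thus bounded less tightly than the strain comparison, with 29 of 30 intervals within 2-fold in the HLH strain, 28 of 30 in the marker strain, and only 12 and 10 within 1.5-fold.

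**Figure D2:**
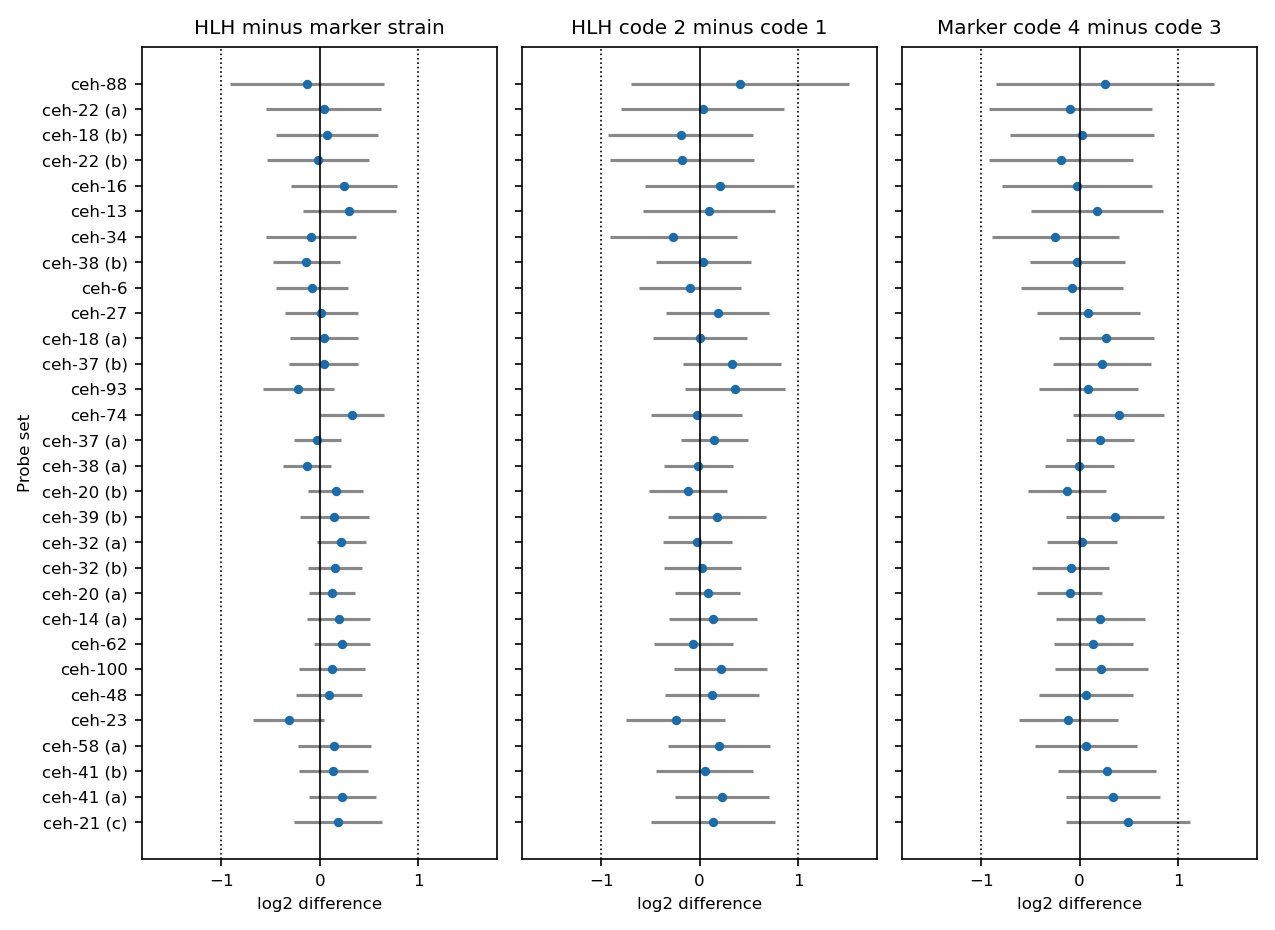
Points are log2 differences of the 30 tested ceh probe sets with 95% limma intervals as bars, for the HLH against the marker strain (6 arrays a side) and for the codes within each strain (3 arrays a side). Rows follow the order of the set 2 difference, letters mark probe sets of one gene in the order of their identifiers, and dotted lines mark 2-fold. All strain intervals lie inside the dotted lines, and in the strain panel only the interval of ceh-74 stays clear of 0.

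Members linked to the M lineage did not stand out between strains. The first ceh-20 probe set, 175601_at, had signals of 1705, 1987 and 1932 at HLH code 1, of 2349, 1729 and 1919 at HLH code 2, of 1994, 1768 and 1751 at marker code 3, and of 1819.5, 1680.3 and 1636.5 at marker code 4, in the order of replicates 1 to 3, which is kept below. The second, 177324_s_at, had 899.8, 1203.3 and 1191 at HLH code 1, 822.8, 1027 and 1193.7 at HLH code 2, 889.6, 939.4 and 1109.3 at marker code 3, and 827, 987.6 and 870.6 at marker code 4. The strains overlapped in both. The strain difference was 0.12 ± 0.11 (SE) for the first and 0.16 ± 0.13 (SE) for the second on the log2 scale, with 95% intervals of -0.11 to 0.35 and -0.12 to 0.44 and adjusted p of 0.654 and 0.599 in limma.

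The sine oculis type gene ceh-34, which in the M lineage acts in non-muscle mesodermal fates, was measured by 192166_s_at. Its signals were 154.2, 333.7 and 236.6 at HLH code 1, 156.9, 196.4 and 227.2 at HLH code 2, 227.1, 302.6 and 209.1 at marker code 3, and 188, 276.1 and 166.2 at marker code 4. The second value is the highest at codes 1, 3 and 4, and the groups overlapped. The strain difference was -0.09 ± 0.21 (SE, log2), adjusted p = 0.893. Codes 2 and 4 lay below codes 1 and 3 by -0.26 ± 0.21 (SE, log2) without the block, adjusted p = 1.0, and by -0.36 ± 0.15 (SE, log2) with it, 95% interval -0.69 to -0.03, adjusted p = 0.420. This did not pass.

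A few other members had the smallest p between strains. The gene ceh-74, for which no role is given here, had signals of 256.6, 233.3 and 243.8 at HLH code 1, 210.2, 251.2 and 260.6 at HLH code 2, 153.8, 197.6 and 155.1 at marker code 3, and 175.4, 276.5 and 221.8 at marker code 4. All code 1 arrays were above all code 3 arrays, while codes 2 and 4 overlapped. A lack of overlap between codes 1 and 3, in either direction, held for 2 of 30 ceh probe sets and 1770 of all 12328 tested. The log2 difference was 0.54 ± 0.21 (SE) between codes 1 and 3, adjusted p = 0.433, and 0.33 ± 0.15 (SE) over both codes, adjusted p = 0.303.

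The homeobox gene ceh-23, which is used in sensory and interneurons, went the other way. It had 198.4, 172.6 and 214.8 at HLH code 1, 180.8, 137.3 and 178.5 at HLH code 2, 272.8, 188.8 and 241.6 at marker code 3, and 270.7, 189.4 and 190.5 at marker code 4. In sets 1 and 2 both HLH arrays were below both marker arrays. The strain difference of -0.32 ± 0.16 (SE, log2) did not pass in limma, adjusted p = 0.377, nor did -0.34 ± 0.14 (SE, log2) with the block, adjusted p = 0.126.

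Between codes, the adjacent ONECUT genes ceh-21 and ceh-41 had the smallest p in the blocked fit of the marker strain. For ceh-21 the probe set 190942_at had 207.3, 151.4 and 231.2 at code 3 and 355.8, 189 and 297.5 at code 4 in sets 1, 2 and 3, so code 4 was higher within every set. For ceh-41 the probe set 175360_at had 289.3, 245.6 and 232.2 at code 3 and 366.9, 254.1 and 359.5 at code 4, again higher within every set. The blocked log2 differences were 0.49 ± 0.17 (SE) and 0.34 ± 0.16 (SE), with adjusted p of 0.562 and 0.680 in limma, so neither passed. Code 4 was also higher within every set for other tested ceh probe sets, among them those of ceh-39 (175419_at), ceh-37 (173897_at) and ceh-74. No count of this order over all probe sets is given here. In the HLH strain ceh-41 had 342.3 and 266.3 at code 1 and 448.8 and 271.6 at code 2 in sets 1 and 2, and ceh-21 had 255.2 and 200.3 against 350.1 and 196.4. The order of the codes was thus the same for ceh-41 in both sets and for ceh-21 in set 1 alone.

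The Otx-type gene ceh-37 had code 2 above code 1 on all arrays with 1 of its probe sets. A lack of overlap between these HLH codes, in either direction, held for 1 of 30 ceh probe sets and 1001 of all 12328 tested. With 192014_s_at the signals were 324.8, 419 and 356.9 at HLH code 1 and 444.3, 505.6 and 429.1 at HLH code 2, a log2 difference of 0.33 ± 0.23 (SE), adjusted p = 1 in limma. The other probe set, 173897_at, had 636.2, 814.7 and 721.2 against 691, 870.3 and 844.5, which overlap.

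Differences between the sets were larger than those between strains and codes. In a fit with groups and sets on 11 arrays, 13 of 30 ceh probe sets (43.3%), belonging to 11 genes, were called between set 2 and the mean of sets 1 and 3, where 42.2% of all tested probe sets were called. The ceh share is thus close to that of the whole array. Of the 13, 11 were higher in set 2 and 2 lower, against 24.8% of all tested probe sets called higher and 17.4% called lower. The 11 include ceh-16 and ceh-88, which entered the test through set 2 and so had to be higher there. The 2 lower include ceh-21, which entered through the arrays outside set 2 and so leaned lower in set 2. After quantile normalization, which forces all arrays to one distribution, 15 were called with 8 higher and 7 lower. Over all tested probe sets that setting called 38.8%, with 2336 higher and 2446 lower against 3058 and 2144 before it, so the split between the directions depends on the scaling for the whole array. The median difference of the ceh probe sets was 0.20 on the log2 scale against 0.05 over all tested probe sets. An unadjusted p under 0.05 held for 19 of 30, against 6310 of all 12328 tested.

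Without overlap between the 4 arrays of set 2 and the 7 arrays of sets 1 and 3 were 7 of the 30 tested ceh probe sets, 6 higher and 1 lower in set 2, against 19.3% of all tested probe sets. They belong to ceh-13, ceh-16, ceh-18, ceh-22 (both probe sets), ceh-88 and ceh-21. Of the tested probe sets 28 would also have passed the brightness filter on the 8 arrays outside set 2 alone. Those of ceh-16 and ceh-88 would not, so these entered the test through set 2 and had to be higher there. Of the other 28, 11 were called. No share over all probe sets under the same restriction is given here, so that count has no like background. The 11 include ceh-21 with 190942_at, which was above the median on 0 arrays of set 2 and on 8 others. It entered the test through the arrays outside set 2 and so leaned lower in set 2.

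**Figure D3:**
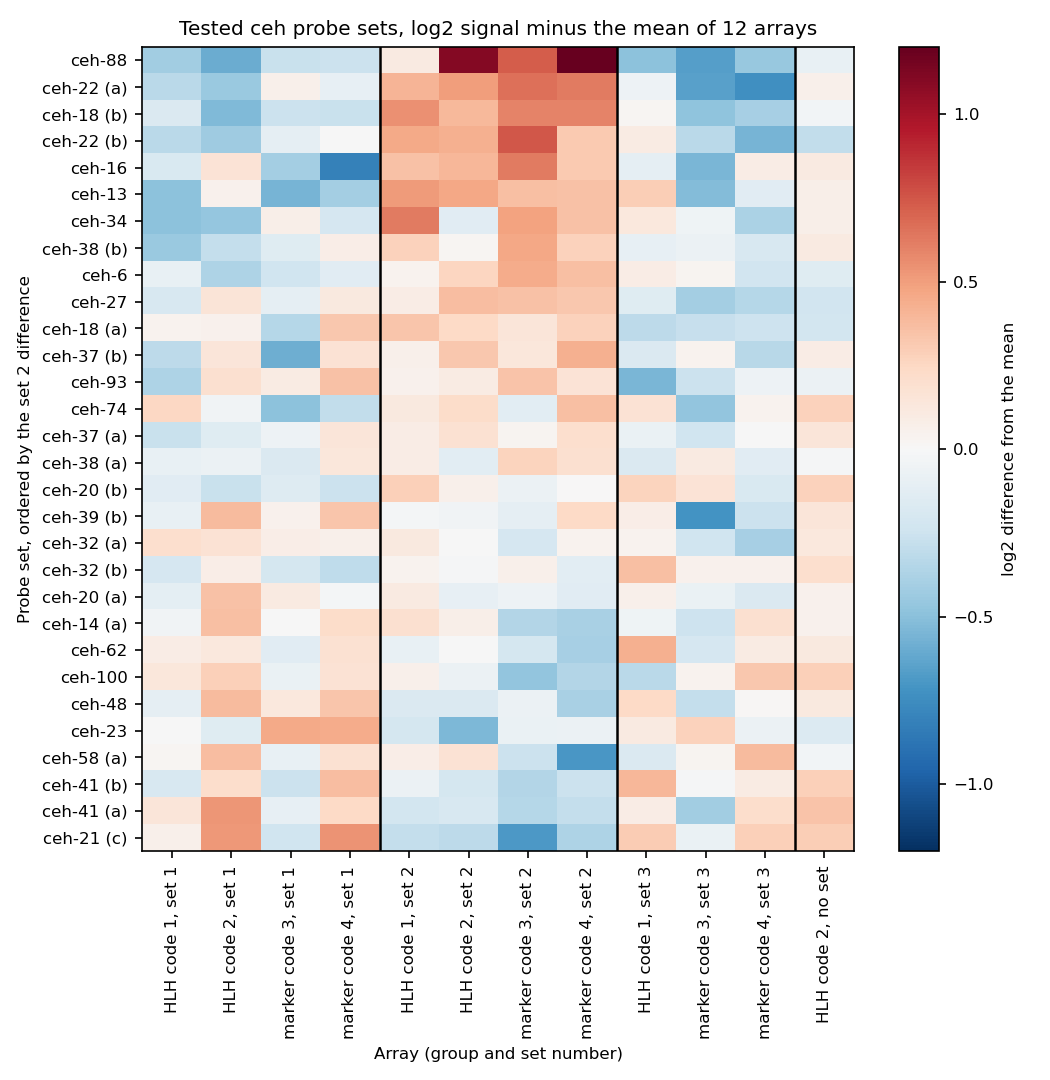
Each row is 1 of the 30 tested ceh probe sets and each column an array, grouped by set, with the HLH code 2 array of uncertain set at the right. Colour is the log2 signal minus the mean of the probe set's 12 arrays, red above and blue below, and rows are ordered by the set 2 difference. The 4 set 2 columns are red for ceh-88, ceh-22, ceh-18 (b), ceh-16 and ceh-13 at the top and blue for ceh-41 (a) and ceh-21 (c) at the bottom.

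Other properties of the arrays moved with set 2. The third quartile of all signals was 613.5 to 626.8 on the set 2 arrays and 538.4 to 579.6 on the others. The summed signals of the neuron markers were 16904 to 18244 in set 2 and 20577 to 23958 in sets 1 and 3, with 3 of 8 tested markers called lower and 1 higher. Those of the pharynx markers were 6219 to 7327 and 8284 to 11512, with 3 of 5 lower, and those of the intestine markers 19294 to 25149 and 25886 to 36548, with 4 of 5 lower. Summed hypodermis markers were at 14362 to 15439 in set 2 and 16301 to 21064 in sets 1 and 3, with 2 of 3 lower.

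Body wall muscle markers overlapped, at 35322 to 44736 in set 2 and 41417 to 55191 in the other sets, with 5 of 6 lower. Of the oocyte and germline markers 1 of 4 was higher and 2 were lower, with sums of 1323 to 1616 and 1469 to 1811. In that list pgl-1 was above the median on 12 arrays, rme-2 on 11, cbd-1 on 6, puf-5 on 4, oma-2 on 2, and oma-1 and glp-1 on 0. Sperm marker sums were 413.1 to 623 and 401.4 to 775.2, with 1 of 3 lower. Embryo marker sums were 915.3 to 1161 and 701 to 1075, with 1 of 2 higher. The higher marker was elt-7 at 0.41 (log2), while end-1 differed by -0.03. Of that list end-1 and elt-7 were above the median on all 12 arrays, and end-3, hlh-1, pes-1 and tbx-35 on none. The part of these shifts in the ceh differences was not tested.

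Both POU genes had higher signals in set 2. For ceh-18 the probe set 187890_at had 656.6, 585, 677.2 and 678.3 in set 2, in the order of codes 1 to 4. It had 398, 310, 373.7 and 371.6 in set 1, and 454.4, 321.6 and 339.3 at codes 1, 3 and 4 in set 3. Every set 2 array was above every other array, and the difference was 0.86 ± 0.11 (SE, log2) or 1.82-fold, adjusted p = 1.0e-04 in limma. The other ceh-18 probe set, 174788_s_at, had means of 1087 ± 57 in set 2 (SD, n = 4), 937 ± 172 in set 1 (SD, n = 4) and 753 ± 16 in set 3 (SD, n = 3), and its difference was 0.38 ± 0.11 (SE, log2), adjusted p = 0.0145. For ceh-6 the means were 289 ± 34, 206 ± 17 and 232 ± 26, a difference of 0.41 ± 0.14 (SE, log2), adjusted p = 0.0273. That call was lost in 7 of 17 alternatives, with adjusted p up to 0.122. They were no filter, quantile normalization, and leaving out either HLH code 2 array of sets 1 and 2, either marker array of set 2, or the marker code 4 array of set 3.

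The NK-2 gene ceh-22, which activates pharyngeal muscle genes such as myo-2, was higher with both probe sets. With 175701_at the signals were 526.8, 562.5, 629.9 and 614.8 in set 2, 317.6, 292.1, 415.5 and 371 in set 1, and 382, 254 and 239.5 in set 3. No set 2 array overlapped the others. The differences were 0.91 ± 0.15 (SE, log2), adjusted p = 0.00047 in limma, and 0.75 ± 0.15 (SE, log2) for 193693_s_at, adjusted p = 0.0023. Measured beside it, myo-2 had a mean of 773.3 in set 2 and 1351 in sets 1 and 3, a log2 difference of -0.79, adjusted p = 0.0024 in limma. It is among the 3 of 5 tested pharynx markers called lower in set 2. A relation between the signals of ceh-22 and myo-2 was not tested.

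Further ANTP and NK class genes were higher in set 2. The labial-type Hox gene ceh-13, which patterns the anterior embryo, had 431.7, 416.5, 388 and 387 in set 2, against 205.7 to 314.4 in set 1 and 211.5 to 372 in set 3. Its difference was 0.62 ± 0.14 (SE, log2), adjusted p = 0.0037 in limma. The NK-2 type gene ceh-27 had means of 345 ± 30 in set 2, 283 ± 33 in set 1 and 231 ± 22 in set 3, with 0.41 ± 0.12 (SE, log2), adjusted p = 0.0158. The engrailed gene ceh-16, which acts in seam cells, had 231.8 to 287.5 in set 2 and 105.9 to 208.4 in the others, which is a description only, since its probe set entered the test through set 2. A further tested probe set of this class, of ceh-23, was lower at -0.32 ± 0.14 (SE, log2) and did not pass, adjusted p = 0.0914. It was above the median on 0 arrays of set 2 and on 5 others, so it entered the test through the arrays outside set 2.

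Of the sine oculis type genes ceh-34 passed and ceh-32, known from head morphogenesis, did not. Set 2 signals of ceh-34 were 333.7, 196.4, 302.6 and 276.1, and those of the other sets 154.2 to 236.6, so the HLH code 2 array of set 2 lay within the range of the others. The difference was 0.57 ± 0.16 (SE, log2), adjusted p = 0.0114 in limma. The ceh-32 probe sets differed by 0.02 ± 0.10 and -0.03 ± 0.11 (SE, log2), with 95% intervals of -0.20 to 0.23 and -0.26 to 0.21.

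ONECUT genes moved in both directions. For ceh-21 the probe set 190942_at had 200.3, 196.4, 151.4 and 189 in set 2, against 255.2, 350.1, 207.3 and 355.8 in set 1 and 301.5, 231.2 and 297.5 in set 3. It was the tested ceh probe set with every set 2 array below every other array, at -0.64 ± 0.13 (SE, log2). This is a description only, since 190942_at entered the test through the arrays outside set 2. The other ceh-21 probe sets were too dim to test and overlapped. In set 2 against sets 1 and 3, 174031_at had 138.2 to 198.6 and 135.5 to 217.5. The values of 174867_at were 15 to 47.6 and 3.7 to 38.6. The neighbouring gene ceh-41 was lower with 175360_at, 259 ± 12 in set 2 (SD, n = 4) against 362 ± 66 in set 1 and 308 ± 67 in set 3, at -0.38 ± 0.12 (SE, log2), adjusted p = 0.0255 in limma. That call was lost in 5 of 17 alternatives, with adjusted p up to 0.112, namely with no filter and without the HLH code 2 array of set 1 or 2 or the marker code 4 array of set 2 or 3. The other ceh-41 probe set, 193249_at, differed by -0.33 ± 0.14 (SE, log2) and did not pass, adjusted p = 0.0767.

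In contrast ceh-38 was higher in set 2 with 189668_at, 584 ± 71 (SD, n = 4) against 425 ± 66 in set 1 and 446 ± 19 in set 3, at 0.45 ± 0.11 (SE, log2), adjusted p = 0.0069. Its other probe set, 174794_at, differed by 0.18 ± 0.11 (SE, log2) and did not pass, adjusted p = 0.185. The X-linked sex signal gene ceh-39 differed by 0.07 ± 0.15 (SE, log2), and by -0.060 after quantile normalization, and ceh-48, a gene of neurons, by -0.31 ± 0.14 (SE, log2), adjusted p = 0.0942. Neither passed. The PBC gene ceh-20 differed by -0.07 ± 0.10 and 0.13 ± 0.10 (SE, log2), with intervals of -0.30 to 0.15 and -0.08 to 0.35.

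The ceh probe set with the highest set 2 difference was that of ceh-88, for which no role is given here. It had 254.4, 506.5, 391 and 578.2 in set 2, in the order of codes 1 to 4, against 176.6, 156.3, 196.1 and 196.8 in set 1 and 167.1, 148.9 and 171.6 in set 3. The set 2 arrays were spread over more than a 2-fold range and all lay above the others. The difference was 1.26 ± 0.18 (SE, log2) or 2.40-fold, given as a description because this probe set entered the test through set 2. The HLH code 2 array of uncertain set had 221.9, above sets 1 and 3 and below set 2. This probe set, 189172_s_at, carries the suffix that Affymetrix uses for probes matching several transcripts. The suffix is also on the only probe sets of ceh-6 and ceh-34, and on 1 probe set each of ceh-18, ceh-20, ceh-22 and ceh-37.

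**Figure D4:**
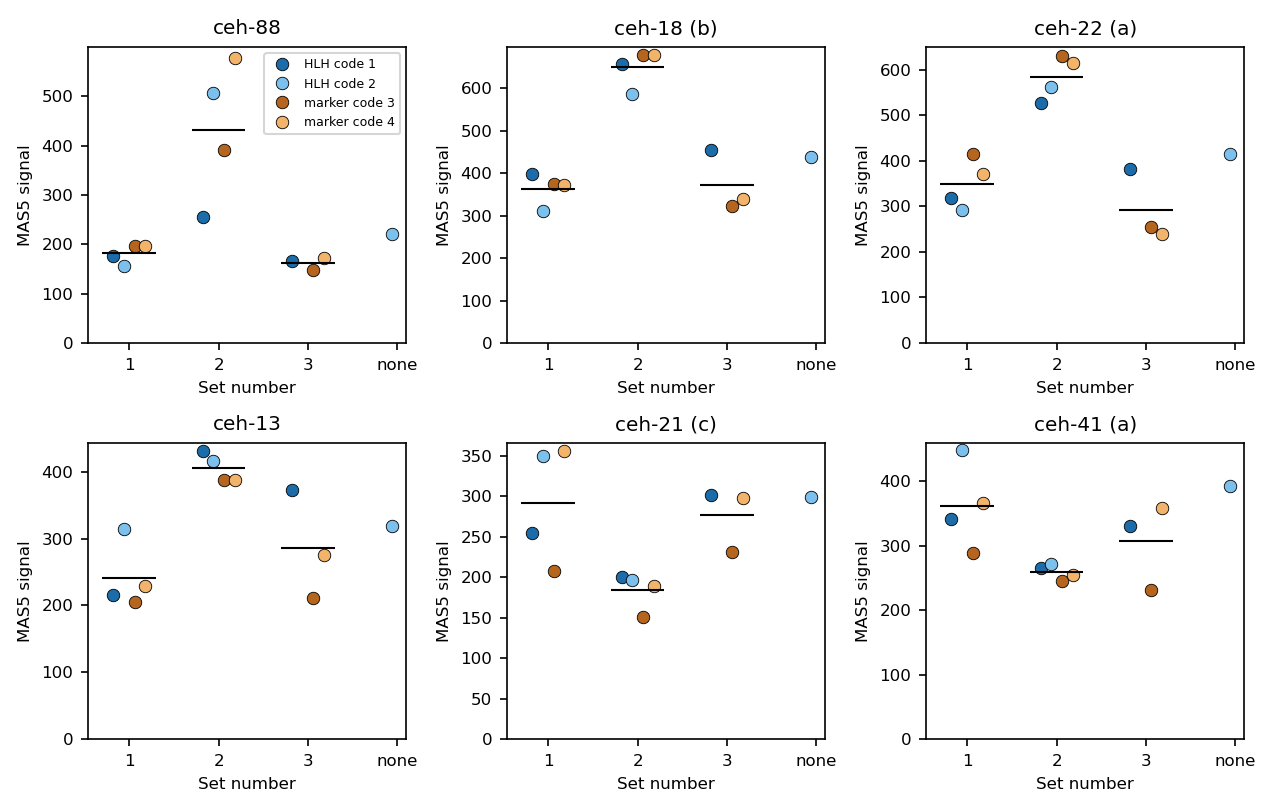
Signals of 6 ceh probe sets on a linear axis from 0, by set number, with each array as a point coloured by group and the mean of each set as a line; the HLH code 2 array of uncertain set is at "none". Every set 2 array of ceh-88, ceh-18 (b), ceh-22 (a) and ceh-13 is above all arrays of sets 1 and 3, every one of ceh-21 (c) is below, and those of ceh-41 (a) overlap set 3.

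Leaving out single arrays changed how many ceh probe sets passed. The count was 8 without the marker code 4 array of set 2, where ceh-41, ceh-16, ceh-34, ceh-27 and ceh-6 were lost, and 9 or more without any other array. The share of all tested probe sets called ran from 28.8% to 45.2% over the same alternatives, and was lowest without that same array. The calls of ceh-13, ceh-21, ceh-22 (both probe sets) and ceh-18 with 187890_at held under all 17 alternatives. Of these, ceh-21 entered the test through the arrays outside set 2, as given above. Beside ceh-6 and ceh-41, calls were lost in 3 of 17 for ceh-27, 2 for ceh-34, 2 for ceh-18 with 174788_s_at and 1 for ceh-38, with adjusted p up to 0.096, 0.055, 0.065 and 0.053. Among the 43 untested probe sets, that of ceh-79 was also higher on every set 2 array, with 179.9 to 323.4 in set 2 and 89.5 to 169.9 in sets 1 and 3; over all 22548 probe sets that are not controls, 13.5% had no overlap. Without the brightness filter 12 of 73 ceh probe sets were called, against 21.3% of all probe sets that are not controls. Of the 12, 10 were among the 13, and the added ones were of ceh-60 and ceh-2, with signals of at most 88.5 and 104.4.

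Homeobox genes outside the ceh series were called at a share close to that of all tested probe sets too. Of 36 such genes listed, 35 were on the arrays with 53 probe sets, of which 31 (58.5%) were tested. In set 2, 13 of the 31 (41.9%) were called, 12 higher and 1 lower. Over all tested probe sets 24.8% were called higher and 17.4% lower, a split that depended on the scaling, as given above. For these 31 neither the split after quantile normalization nor the passing of the filter outside set 2 was examined. Higher were the Hox genes lin-39 at 0.62 ± 0.13 (SE, log2), adjusted p = 0.0023, and, with 1 of its 2 tested probe sets, mab-5 at 0.54 ± 0.18 (SE, log2), adjusted p = 0.033. The other mab-5 probe set did not pass, at 0.17 ± 0.11 (SE, log2), adjusted p = 0.245. The probe sets of the TALE gene unc-62, a Meis-type partner of PBC proteins, disagreed, with 0.69 ± 0.24 (SE, log2), adjusted p = 0.033, for one and -0.21 ± 0.16 (SE, log2), adjusted p = 0.319, for the other. The Prospero gene pros-1 was lower at -0.53 ± 0.12 (SE, log2), adjusted p = 0.0042. Between strains and between codes 0 of the 31 were called without the block. With the block 1 was called between strains, against 14% of all tested. Without the block an unadjusted p under 0.05 held for 1 of the 31 between strains, against 1983 of all 12328. The counts were 0 between codes 2 and 1 and 1 between codes 4 and 3, against 284 and 268.

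No ceh gene passed between set 3 and set 1. Here 0 of 30 ceh probe sets were called, against 1.35% of all tested, and all 30 intervals lay within 2-fold. An unadjusted p under 0.05 held for 4 of the 30, against 2297 of all 12328 tested probe sets. The 4 were both probe sets of ceh-32, 1 of ceh-39 and 1 of ceh-20. For ceh-32 they pointed in opposite directions, at -0.32 ± 0.12 (SE, log2) for 174236_at and 0.35 ± 0.14 (SE, log2) for 193576_at, each with an adjusted p of 0.193 in limma. The difference was -0.44 ± 0.18 (SE, log2) for ceh-39, adjusted p = 0.223, and 0.27 ± 0.12 (SE, log2) for ceh-20 with 177324_s_at, adjusted p = 0.258. Without the HLH code 1 array of set 3, 2 of 30 ceh probe sets were called, of ceh-39 and ceh-22, and the share of all tested probe sets called rose to 5.58%.

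Probe sets of one gene moved together for some genes and not for others. In 7 genes 2 probe sets were tested. Both ceh-22 probe sets passed between sets in one direction, as did both of ceh-18. For ceh-38 and ceh-41 the 2 probe sets had differences of one sign and 1 of them passed. The probe sets of ceh-37 were both higher in set 2, at 0.22 ± 0.10 and 0.35 ± 0.14 (SE, log2), but did not pass, adjusted p = 0.0874 and 0.0616. The probe sets of ceh-20 and ceh-32 had differences of opposite sign, none of which passed. For these a value is that of the probe set, and the gene has no single measured difference.

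**Figure D5:**
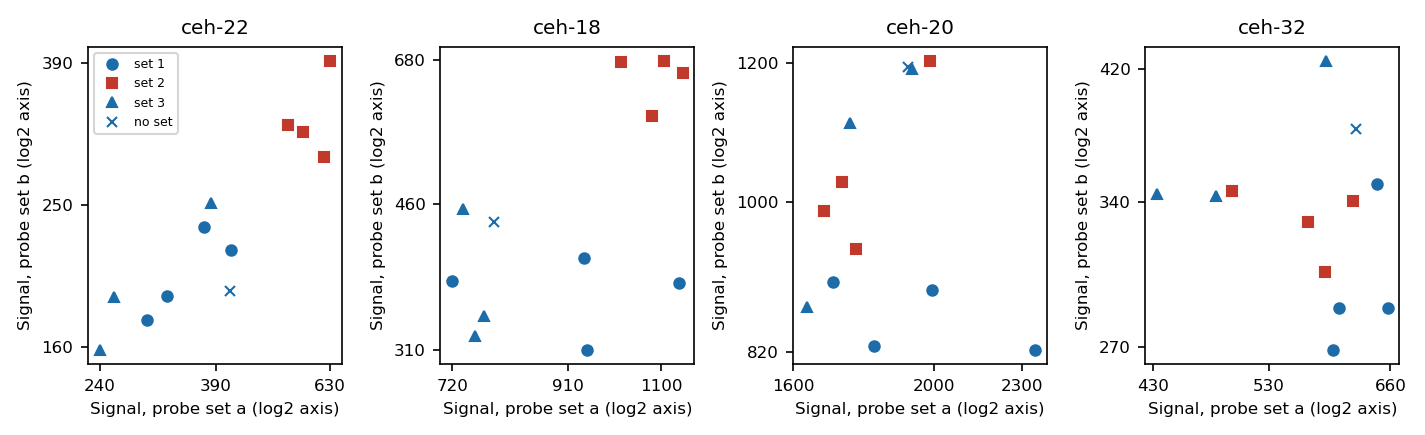
Signals of the 2 tested probe sets of ceh-22, ceh-18, ceh-20 and ceh-32 on log2 axes, 1 point per array, set 2 as red squares and the other arrays in blue. The set 2 arrays are apart from the others on both axes for ceh-22 and on the vertical axis alone for ceh-18, and for ceh-20 and ceh-32 they lie among the others.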

How the data were processed

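RNA of 12 samples was made into biotinylated cRNA, per the labels. Each probe set has 1 deposited intensity per array, on a linear scale. The submitters' processing notes name MAS5 without a version. The authors' scaling, which gave each array a 2% trimmed mean of 500.1, was kept. MAS5 subtracts background, which makes ratios of low signals noisy. The number of arrays limits the precision.

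Before taking log2, signals below 16.7, the 10th percentile of all values, were set to that level. After leaving out 77 controls, 12328 probe sets with a signal over the array median on 3 or more of 12 arrays were tested. Groups came from the title's code and the source name. limma 3.58.1 in R 4.3.3 (lmFit, eBayes with trend, two-sided) fitted 4 groups, with 8 residual and 4.87 prior degrees of freedom. The set fit used 11 arrays, group and set, with 5 residual and 7.76 prior degrees of freedom. Benjamini-Hochberg adjustment ran over all tested probe sets.

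The replicate number in the titles is the set number. Deviations from group means correlated at 0.31 to 0.79 in all 15 pairs of arrays with one set number, and at -0.69 to 0.53 in 30 pairs with different numbers, so the numbers were taken to pair the arrays. No 2 arrays were identical. The array titled 2_2 (2) had no sure set, and its correlation with 2_2 was 0.946, within the 0.891 to 0.977 of all pairs.

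Gene names came from the platform annotation, with 20701 symbols updated through the RefSeq table of WBcel235, which left the ceh members as they were. That table also gave neighbouring genes. The genome build used for the probes is unknown here. No sequence is shown, as no probe or protein sequence was used here. Homeobox classes and marker lists were assigned from general knowledge. Members, lists and tests were chosen with earlier results of these data known. Named with values are members called in any comparison, those with the smallest p in each direction, tested TALE and ONECUT members, and the M lineage genes. Fits were tested on simulated data. Alternatives were no filter, a filter at 6 arrays, quantile normalization, log2(signal + 50), no trend, the compared groups alone, each array left out, 2_2 (2) averaged with 2_2, and 2_2 (2) placed in set 3.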

Additional observations from a re-analysis of the deposited data

How the results depend on the processing

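The count of ceh probe sets called between strains, between codes and in the interaction was 0 under every alternative run, the set as a replicate block included, in which the counts were also 0. The block therefore changed no call. Between set 2 and the other sets 13 were called, 12 without the filter, 13 with the filter at 6 arrays, 15 after quantile normalization, 13 with log2(signal + 50) and 14 without the trend or with the array titled 2_2 (2) in set 3. The shares of all probe sets called in these, in the same order, were 42.2%, 21.3%, 42.3%, 38.8%, 42.7%, and 40.7% and 40.8%. Leaving out 1 array gave 8 to 15, with 28.8% to 45.2% of all called. Set 3 against set 1 gave 0 to 2 when 1 array was left out, with at most 5.58% of all called. Of the differences of named probe sets under the alternatives, 1438 kept direction and side of the threshold, 24 lost the call, 7 gained it and 12 changed sign, the cause of which was not tested. These counts leave out some differences printed above. In set 2 a ceh-37 probe set also passed without the marker code 4 array of set 1 or the marker code 3 array of set 3. It passed too with 2_2 (2) in set 3, and ceh-23 passed without the trend. All that changed sign had not passed. When 1 array was left out, they ran from -0.22 to 0.054 for ceh-34 and from -0.0010 to 0.18 for ceh-48 between strains, from -0.55 to 0.0022 for ceh-34 and from -0.26 to 0.025 for ceh-20 (177324_s_at) between codes 2 and 1, from -0.016 to 0.27 for ceh-32 (193576_at) in the interaction, and from -0.23 to 0.011 for ceh-38 (189668_at) between codes 2 and 4. In set 2 they ran from -0.15 to 0.0039 for ceh-20 (175601_at) and from -0.015 to 0.19 for ceh-39, which quantile normalization turned to -0.060. With 3 arrays a group and 43 of 73 ceh probe sets too dim to test, small differences and those of the dim genes could not be measured.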
